A study of Bos taurus with 12 samples.

Results

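The baseline transcriptome of cattle preadipocytes was described from the control cells of a transfection study in Bos taurus. Of the 12 RNA sequencing libraries in the series, the 6 that received a negative control were taken: 3 labelled si_NC and 3 labelled OE_NC. The si_NC cells were transfected with the negative control of the interference experiment, which the labels call an NC plasmid, and the OE_NC cells with a pcDNA3.1 negative control plasmid. Both were harvested 48 h after transfection. No untransfected cells were analysed here, so every level below belongs to cells that had met a transfection reagent. The labels give no animal, depot, age or passage and do not say that the replicates were separate cultures, so an SD measures the spread between these 6 libraries, which may be technical. Libraries were stranded and made from polyadenylated RNA.

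Preadipocytes are fibroblast-like precursors in the stroma of fat. They make collagen-rich matrix, carry the receptors for platelet-derived growth factor, and divide in culture until a hormonal stimulus starts their differentiation. During adipogenesis the transcription factors PPARG and CEBPA switch on genes for lipid storage and for hormones such as adiponectin, while the actin cytoskeleton and the fibrillar matrix are taken down.

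Levels are given in RPKM, in which the reads of a gene are divided by its exon length and by the reads that its library has in all genes, so that genes of different length can be set side by side. Means are over the 6 libraries, with the SD (n = 6) after the ± sign, and a share is the percentage of the RPKM summed over all genes of a library. Reads assigned to genes came to 28.9 to 32.2 M in si_NC and 35.1 to 38.2 M in OE_NC. The count table names 29240 genes. Of these, 11253 averaged at least 1 RPKM, 4412 at least 10, 718 at least 100 and 67 at least 1000, while 1752 (5.99%) had no read in any of the 6 libraries. In every one of the 6 libraries, 10275 genes reached 1 RPKM.

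The 2 sets of controls stood apart. Libraries of the same set correlated at 0.996 to 0.998 (Pearson, log2 scale, across genes, which are not independent replicates), and libraries of different sets at 0.992 to 0.995. For 4508 of the 11253 genes with a mean of at least 1 RPKM (40.1%), the 3 si_NC values and the 3 OE_NC values did not overlap. The pooled SD therefore holds the spread within a set and the distance between the sets. Transfection type and sequencing depth cannot be told apart as the source of that distance, and values of both sets are given for some of the genes where they separated.

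The 5 markers of the cell type were present in all 6 libraries, at levels that spanned more than 2 orders of magnitude. VIM, the intermediate filament of mesenchymal cells, measured 2841, 3284 and 2992 RPKM in si_NC and 3201, 3206 and 3180 in OE_NC. Its mean of 3117 ± 166 was the 8th highest of all genes, and the 2 sets overlapped. CALD1, caldesmon, which binds actin and tropomyosin, measured 2030, 2747 and 2274 RPKM in si_NC and 1968, 2347 and 2254 in OE_NC. It held more reads than any other gene, 1.46% of those in genes. COL1A2, a chain of type I collagen, measured 1045, 1618 and 1167 RPKM in si_NC and 1108, 1475 and 1691 in OE_NC, again with overlap (mean 1351 ± 279).

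The 2 surface markers were far lower. PDGFRB, a receptor for platelet-derived growth factor, measured 12.6, 18.99 and 15.5 RPKM in si_NC and 15.003, 19.4 and 20.5 in OE_NC. THY1, the surface glycoprotein CD90, measured 3.42, 5.96 and 4.52 RPKM in si_NC and 10.5, 11.4 and 11.3 in OE_NC. All 3 OE_NC values of THY1 lay above all 3 si_NC values, whereas the sets overlapped for PDGFRB. In the coordinates of the count table, whose genome build is not given in the sources used here, COL1A2 lies on chromosome 4 from 11776444 to 11813113 and CALD1 on chromosome 4 from 98449568 to 98681120. VIM lies on chromosome 13 from 31653816 to 31661745, THY1 on chromosome 15 from 29981019 to 29986913, and PDGFRB on chromosome 7 from 61473641 to 61511258. All values count reads over the exons of these genes.

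Among the 25 stromal and preadipocyte genes examined, 16 averaged at least 1 RPKM, 4 lay between 0.1 and 1, and 5 lay below 0.1. Of all protein-coding genes, 51.7% averaged at least 1 RPKM and 31.9% lay below 0.1. ITGB1, the shared beta chain of many matrix receptors, averaged 425 ± 17.9 RPKM, CD44, the hyaluronan receptor, 135 ± 14.03, and PDGFRA 30.8 ± 5.68. PDGFRA exceeded PDGFRB in every library, with a ratio of 1.82 ± 0.203. The 5 low genes were CD34 (0.0117 RPKM, 6 reads in all 6 libraries together), DPP4 (0.0576), DLK1 (0.0603), VCAM1 (0.0627) and PI16 (0.0647). CD34, DPP4 and PI16 are used to define progenitor fractions of fresh fat tissue, and DLK1 is the preadipocyte factor Pref-1. The 5 markers named first are shared by fibroblasts and smooth muscle and were chosen with earlier results known, so their presence does not set preadipocytes apart from other mesenchymal cells. The Y-linked genes listed (DDX3Y, UTY, EIF1AY, KDM5D, ZFY, USP9Y and SRY) had no entry in the count table, so the sex of the cells is not read from these data. XIST, the X-inactivation transcript, ranged from 3.88 to 6.08 RPKM.

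A small number of genes held much of the transcriptome. The single most abundant gene took 2.93% ± 0.201 of summed RPKM, the top 10 took 13.6% ± 0.182, the top 100 took 39.5% ± 0.285 and the top 1000 took 75.4% ± 0.503. Ranked by mean, 200 genes held 50% of the sum. The shares of the top 100 ranged only from 39.1 to 39.9% over the libraries.

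The head of that ranking was a mixture of mitochondrial entries, short genes and cytoskeletal, ribosomal and chaperone genes. At the top were mitochondrial transfer RNA entries, KEH36_t11 with 13884 ± 487 RPKM and KEH36_t22 with 11982 ± 1477. They were followed by ATP8, a subunit of ATP synthase encoded by the mitochondrial genome, with 8764 to 9655 RPKM in si_NC and 12124 to 13515 in OE_NC. These entries are short, at 68, 66 and 201 bases. KEH36_t11 occupies bases 5618 to 5685 of the mitochondrial genome on the strand opposite to COX1, which starts at base 5687, and 40 of the 201 bases of ATP8 are also bases of ATP6. Next came the microRNA gene MIR3533 (5735 ± 1200 RPKM), of whose 84 bases 83 lie within the exons of cytoplasmic actin ACTG1 on the same strand. Reads of ACTG1 and MIR3533 cannot be told apart there, so that value is not read as a microRNA level.

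The entries that followed included the ribosomal protein RPL23A (4275 ± 639), the myosin light chain MYL6 (3597 ± 398), VIM, the nucleolar protein nucleolin NCL (3115 ± 563) and ATP6 (3050 ± 98.7). The other 20 of the top 30 lay between 1784 and 3024 RPKM. They included the thymosin TMSB10, the tropomyosins TPM1, TPM2 and TPM4, CALD1, nonmuscle myosin MYH9 and the actin-associated protein NEXN; the chaperones CALR, HSP90AA1, HSP90AB1 and HSP90B1; the ribosomal proteins RPS24 and RPLP1; the respiratory subunits COX1 and COX7C; the nucleic acid binding proteins YBX1, NPM1 and HMGB1; and the glycolytic enzyme PKM. In 13 of these 30 genes (43.3%) the 2 control sets did not overlap, 7 higher in OE_NC and 6 higher in si_NC, against 40.1% of all genes with a mean of at least 1 RPKM. NEXN was 1 of the 6, with 2269 to 2437 RPKM in si_NC and 1501 to 1544 in OE_NC; 1059 of its 4880 exon bases are also exon of FUBP1. TPM2 was 1821 to 2109 in si_NC and 2627 to 2732 in OE_NC. PKM, by contrast, varied only from 1711 to 1879.

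**Figure D1:**
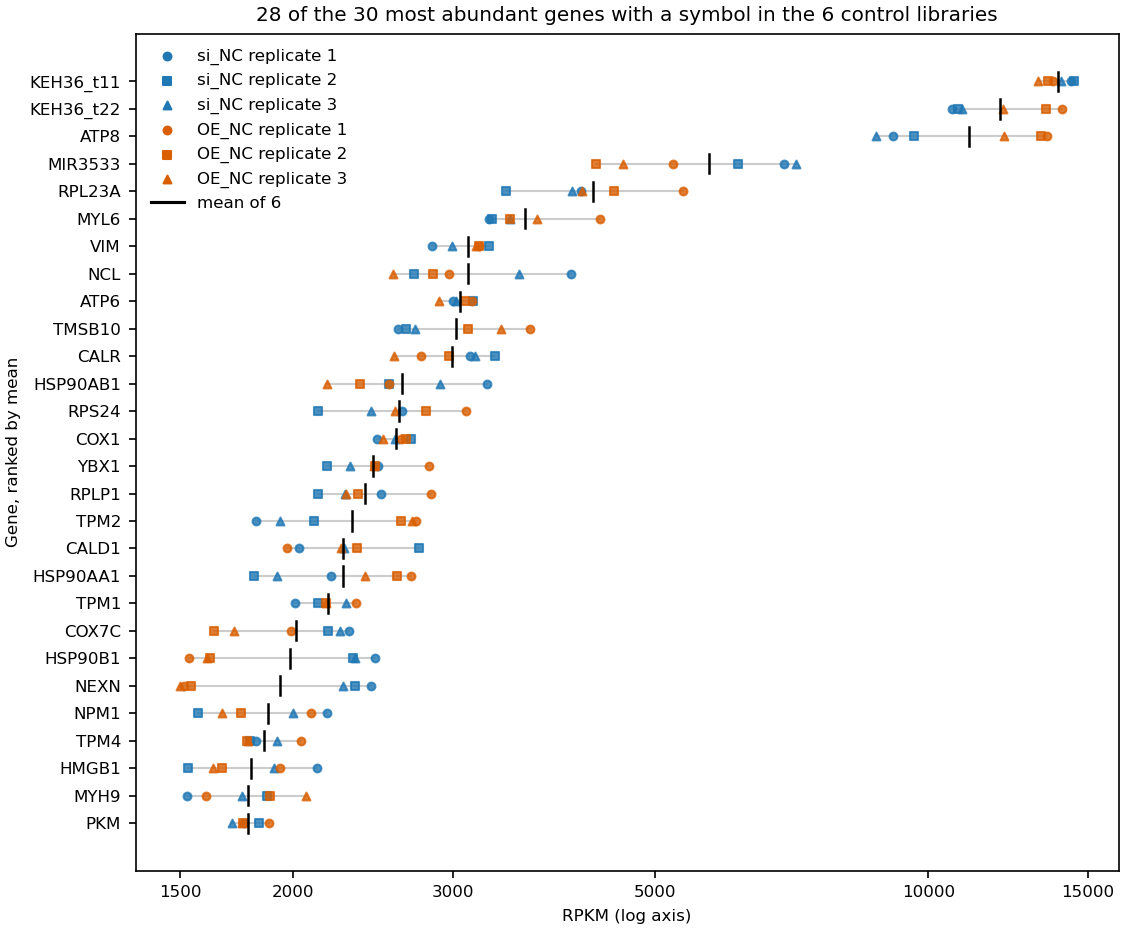
RPKM (log axis) of 28 of the 30 genes with a symbol and the highest mean, one point per library, coloured by control set, with a black bar at the mean of 6. The first 3 genes stand clear of the rest, with 8764 RPKM as their lowest value; NEXN, HSP90B1 and TPM2 show the 2 control sets as separate clusters, while PKM, ATP6 and COX1 do not.

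What a gene contributes depends on whether its length is divided out. Genes under 300 exon bases held 11.9% of summed RPKM and 0.577% of reads, and genes of 6000 bases or more held 5.63% of RPKM and 21.5% of reads. The 22 mitochondrial transfer RNA entries held 6.83% ± 0.197 of RPKM but 0.219% of reads. Ranked by reads, the leading genes were CALD1, MYH9 (1.32% of reads), TPM1 (1.01%), NEXN (0.944%) and NCL (0.855%), and COL1A2 (0.624%) and the neural stem cell filament nestin NES (0.582%) stood at ranks 10 and 11. By that measure 4 of the first 5 genes bind or form actomyosin. Protein-coding genes held 86.6% of RPKM and 96.0% of reads, and long noncoding RNA 0.436% and 0.394%.

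Cytosolic ribosomal proteins held the largest share of RPKM among the families examined, although by reads they held 4.13% against 8.37% for actin genes. The 79 measured genes held 11.7% ± 1.11 of summed RPKM, with a lowest library at 10.1%, si_NC replicate 2, and a highest at 13.5%, OE_NC replicate 1. Every member averaged above 10 RPKM in this family and 71 averaged above 100, with a median of 478. Although these proteins are built into the same particle, the levels were uneven. RPL23A averaged 4275 RPKM, RPS24 2612 ± 329 and RPLP1 2397 ± 246, while RPS4Y1, the lowest, averaged 55.05. Ribosomal protein genes have many near-identical processed copies, and how reads with several matching places were counted is not given in the sources used here, so single members are uncertain; the effect of this on the spread was not tested.

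Actins and actin-binding proteins came next, with 5.80% ± 0.277 of RPKM and 8.37% of reads in 41 genes, of which 40 reached 1 RPKM and 26 reached 100. The leaders were MYL6, TMSB10 (3024 ± 429) and TPM2 (2320 ± 413). Among the actins, smooth muscle actin ACTA2 averaged 1612 ± 230 RPKM, above the cytoplasmic actins ACTB (1213 ± 72.6) and ACTG1 (981 ± 137), while skeletal ACTA1 averaged 7.60 and cardiac ACTC1 1.77. Actin genes are close copies of each other, so reads may be split among them. ACTA2 was 1314, 1373 and 1630 RPKM in si_NC and 1918, 1712 and 1728 in OE_NC, with every OE_NC value higher. Among the myosin heavy chains, nonmuscle MYH9 exceeded nonmuscle MYH10 (676 RPKM) 2.65-fold (SD 0.275), smooth muscle MYH11 averaged 1.07 RPKM, and MYH14 at 0.0793 was the family's one member below 0.1.

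The other filament systems were each carried by a few genes. VIM made up 66.5% of the summed RPKM of 21 intermediate filament and lamin genes. NES, nestin, averaged 955 ± 214 RPKM, with 1092 to 1230 in si_NC and 700 to 820 in OE_NC, and the lamin gene LMNA 260 ± 25.1. DES, desmin, followed with 232 ± 25.05 RPKM, and the neurofilament gene NEFH stood at 25.7 ± 3.26, while 5 members, among them the epithelial keratins KRT5, KRT14 and KRT18, lay below 0.1. Tubulins were led by TUBA1B (618 ± 55.6), TUBA1A (402 ± 34.4) and TUBB (298 ± 45.7), which together held 72.6% of the family's 15 genes. Annexins and S100 proteins, calcium-binding proteins of membranes and cytoplasm, were led by ANXA1 (946 ± 100.3), ANXA2 (861 ± 99.5) and S100A4 (325 ± 101.1, with means of 234 in si_NC and 416 in OE_NC and no overlap). Of that family 6 members lay below 0.1, including the myeloid alarmins S100A8, S100A9 and S100A12. For comparison, 31.9% of protein-coding genes lay below 0.1.

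**Figure D2:**
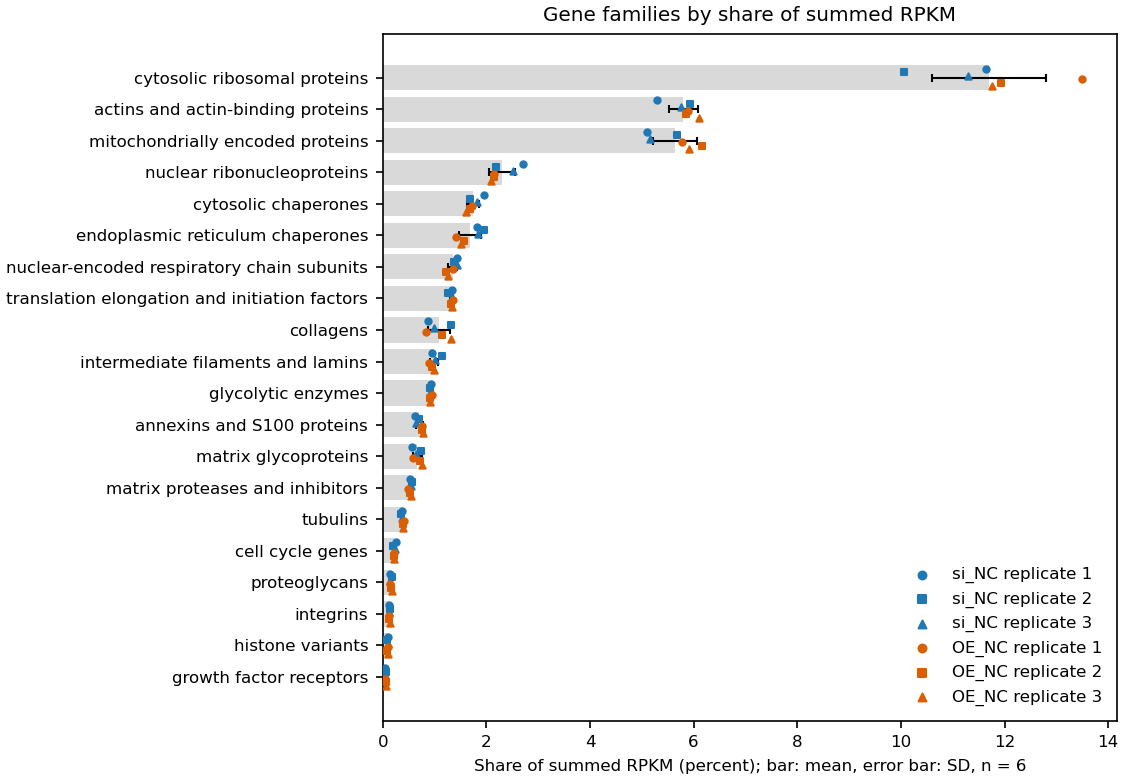
Share of summed RPKM (percent) of each gene family; bars are means of 6 libraries, error bars the SD, and points the libraries. Ribosomal proteins (11.7%), actin genes (5.80%) and mitochondrially encoded proteins (5.64%) exceed every other family shown, and the ribosomal share spans 10.1 to 13.5%. By reads the mitochondrial family held 1.70%.

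Mitochondrially encoded proteins held 5.64% ± 0.420 of RPKM, and all 13 averaged at least 100 RPKM, from ND4 (485) to ATP8 (11087). ATP8, an entry of 201 bases, made up 41.4% of the family's summed RPKM. By reads the family held 1.70%, below nuclear ribonucleoproteins (3.14%) and collagens (2.81%). ATP6 averaged 3050 and COX1 2592 ± 85.2. The 34 nuclear-encoded subunits of the same respiratory complexes held 1.35% ± 0.0895, led by COX7C (2013 ± 282), UQCRB (1011 ± 114) and COX6A1 (615 ± 76.9). Subunits of 1 complex were uneven here too. Within cytochrome c oxidase, COX7C exceeded COX5A (16.1 RPKM) 125-fold (SD 15.8) and COX8A averaged 3.11. COX7C is a short entry of 450 bases, and the SD covers only the spread between libraries. How reads with several matching places were counted is not given in the sources used here, so the levels of single subunits are uncertain.

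Nuclear ribonucleoproteins and the machinery of protein folding and translation filled most of the next ranks. Nuclear ribonucleoproteins held 2.30% ± 0.251, led by NCL, NPM1 (1877 ± 247) and HNRNPA2B1 (1081 ± 59.7). NCL was highest in si_NC replicate 1 at 4040 RPKM and lowest in OE_NC replicate 3 at 2573. Cytosolic chaperones held 1.75% ± 0.120, with HSP90AB1 at 2634 ± 391, HSP90AA1 at 2270 ± 360 (1976 in si_NC and 2564 in OE_NC, without overlap) and HSPA8 at 934 ± 93.1. Chaperones of the endoplasmic reticulum, which fold secreted proteins such as collagen, held 1.69% ± 0.216. There CALR (2992 ± 280) and HSP90B1 led, followed by PPIB (693 ± 35.7), a partner of collagen hydroxylation. HSP90B1 was 2326 to 2460 RPKM in si_NC and 1536 to 1617 in OE_NC, and in 12 of the 15 genes of this list the sets did not overlap, against 40.1% of all genes with a mean of at least 1 RPKM. The list of translation factors held 1.33% ± 0.0324, led by TPT1 (1373 ± 192), EIF3A (943 ± 78.1) and EEF1B2 (814 ± 97.5). TPT1, the translationally controlled tumour protein, is not itself an initiation or elongation factor, and it made up 21.8% of the list's sum.

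Glycolytic enzymes held a steady share of RPKM, 0.923% ± 0.0172 for 24 genes with a range over libraries of 0.906 to 0.952%. In 9 of the 24 the sets did not overlap, near the 40.1% of all genes with a mean of at least 1 RPKM. Only 17 of the 24 averaged at least 1 RPKM, so the sets of genes compared are not alike. The enzymes were led by PKM, ENO1 (628 ± 72.2) and TPI1 (453 ± 74.2). LDHB exceeded LDHA in every library (ratio 1.58 ± 0.123). The hexokinase HK3 was the one member below 0.1. All 33 cell cycle genes averaged above 1 RPKM, led by the proliferation antigen MKI67 (115 ± 12.95), the mitotic cyclin CCNB1 (98.8 ± 12.8) and topoisomerase TOP2A (81.0 ± 8.34). Histone variants were led by H2AFV (114 ± 21.2), H3F3B (103 ± 6.86) and H2AFZ (91.0 ± 12.2).

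Matrix genes were led by a few abundant members. Of 43 collagen genes, 18 averaged at least 1 RPKM and 15 lay below 0.1, shares not far from those of protein-coding genes as a whole (51.7% and 31.9%). Collagens and matrix glycoproteins together held 1.75% ± 0.295 of RPKM and, being long, 3.97% of reads. COL1A2, COL6A1 (998 ± 73.8) and COL1A1 (537 ± 173) made up 56.5% of the collagen sum. COL1A2 exceeded COL1A1 2.60-fold (SD 0.368), although type I collagen is built from 2 alpha-1 chains for each alpha-2 chain. The partners of type VI collagen were also unequal, with COL6A1 2.24-fold above COL6A2 (SD 0.0707) and 19.5-fold above COL6A3 (SD 3.83). Of the fibrillar collagens, COL3A1 averaged 390 ± 146, COL5A2 252 ± 60.3 and COL11A1 124 ± 33.4, while COL2A1 of cartilage averaged 0.153. COL10A1, COL22A1 and COL23A1 were among those below 0.1.

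Fibrillar collagens varied within the control sets. COL1A1 was 342 RPKM in its lowest library, 505 at the median and 769 in its highest, and COL3A1 was 217, 394 and 581. For COL1A2, si_NC replicate 2 was far above the other 2 si_NC libraries and OE_NC replicates 2 and 3 above OE_NC replicate 1. The 2 sets overlapped for COL1A1, COL1A2 and COL3A1.

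Matrix glycoproteins were led by SPARC (1433 ± 311), which binds collagen, THBS1 (507 ± 44.7), a thrombospondin, and POSTN (243 ± 25.04), periostin. Fibronectin FN1 averaged 61.1 ± 11.8, and 26 of the 30 genes reached 1 RPKM. THBS4, a thrombospondin of tendon and muscle, was the one below 0.1. Of the 24 proteoglycan and related genes, DCN (265 ± 54.6), CD44 and LUM (93.4 ± 11.7) were highest, and 5 lay below 0.1, including the cartilage aggrecan ACAN and the brain forms BCAN and NCAN. By comparison, 51.7% of protein-coding genes reached 1 RPKM and 31.9% lay below 0.1.

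Enzymes and receptors that act on this matrix also spanned a wide range of levels. The gelatinase MMP2 averaged 414 ± 30.6 RPKM, and TIMP1, an inhibitor of such proteases, 251 ± 92.0 (167 in si_NC and 334 in OE_NC, without overlap). The 3 members below 0.1 were MMP3, MMP9 and MMP13. MMP2 exceeded its activator MMP14 2.80-fold (SD 0.233). Among 26 integrins, ITGB1 held 70.6% of the sum, and ITGA5, which pairs with it to bind fibronectin, averaged 56.7 ± 5.99, and ITGB3 53.6 ± 5.92. The leukocyte chains ITGAL, ITGAM and ITGB2 were among 7 below 0.1. Growth factor receptors were led by AXL (46.3 ± 5.03), PDGFRA and IGF2R (29.2 ± 5.81), and 7 of 32 lay below 0.1, among them KIT, ERBB3 and ERBB4. Since 31.9% of protein-coding genes lay below 0.1, nothing is read from the counts of low members in these lists.

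**Figure D3:**
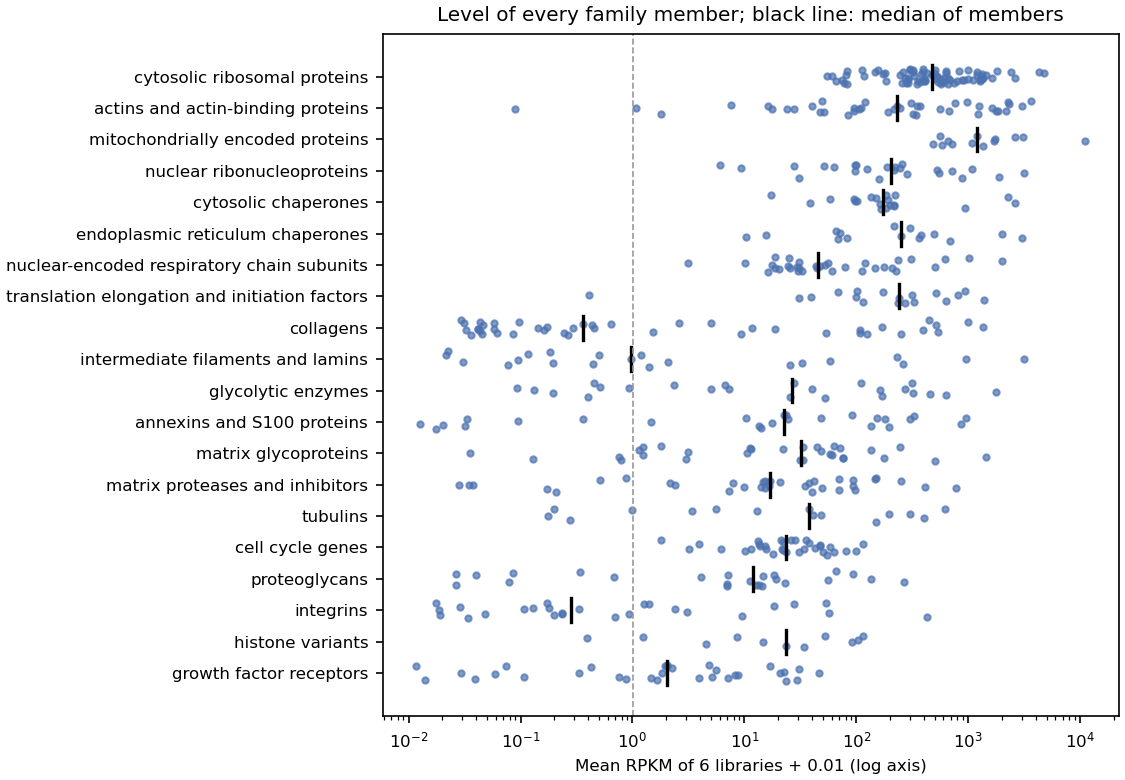
Mean RPKM plus 0.01 (log axis) of every member of each gene family, one point per gene, with the median as a black line and 1 RPKM dashed. Ribosomal proteins, chaperones and cell cycle genes all lie above 1 RPKM, whereas collagens, integrins and intermediate filaments spread from below 0.1 to above 100.

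Genes that carry positional identity were examined next. HOX genes are homeobox transcription factors in 4 clusters, numbered from the head end to the tail end of the body, and cultured fibroblasts keep the set of the site they came from. Of 39 HOX genes, 22 averaged at least 1 RPKM, 8 lay between 0.1 and 1 and 9 below 0.1. Among all protein-coding genes, 51.7% averaged at least 1 RPKM and 31.9% lay below 0.1, so nothing is read from these counts alone. HOXC8 averaged 51.7 ± 5.90 RPKM, with 44.9 in the lowest library, 50.8 at the median and 61.9 in the highest. HOXB7 was 33.9, 39.3 and 33.5 RPKM in si_NC and 31.6, 28.7 and 32.9 in OE_NC, slightly higher in every si_NC library. These 2 genes made up 48.4% of the HOX sum.

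Cluster C was the strongest, with HOXC10 (15.3), HOXC6 (11.1), HOXC5 (8.51), HOXC9 (6.85) and HOXC4 (2.09) behind HOXC8. Cluster B followed with HOXB6 (6.38), HOXB2 (2.65), HOXB3 (2.43), HOXB4 (2.23) and HOXB9 (1.74) behind HOXB7. Cluster A had no gene above 10 RPKM, and 8 of its 11 reached 1, namely HOXA9 (6.73), HOXA5 (5.72), HOXA6 (2.76), HOXA10 (2.24), HOXA7 (2.04), HOXA11 (1.41), HOXA3 (1.38) and HOXA2 (1.10). In cluster D only HOXD8 (1.94) and HOXD4 (1.07) reached 1 RPKM, and HOXD1 had no read, which allows a level of up to 0.00795 RPKM (3 reads over the 6 libraries pooled, counting error only). By number, 12 of the 15 genes of paralogue groups 4 to 8 and 5 of the 7 of groups 9 and 10 reached 1 RPKM, against 1 of the 9 of groups 11 to 13, and 6 of those 9 lay below 0.1. Neighbouring genes of a cluster could differ widely, with HOXC8 7.54-fold above HOXC9 (SD 0.468) and HOXB7 5.23-fold above HOXB6 (SD 0.359). HOXA6, HOXA10 and HOXB3 share exon bases with genes of LOC number on the opposite strand, and the counting strand is not given in the sources used here. On the same strand, HOXA3 and HOXA5 share 52 exon bases, HOXB4 shares 140 with HOXB3, and HOXD4 shares 99 with MIR10B. Reads in these shared bases cannot be told apart.

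**Figure D4:**
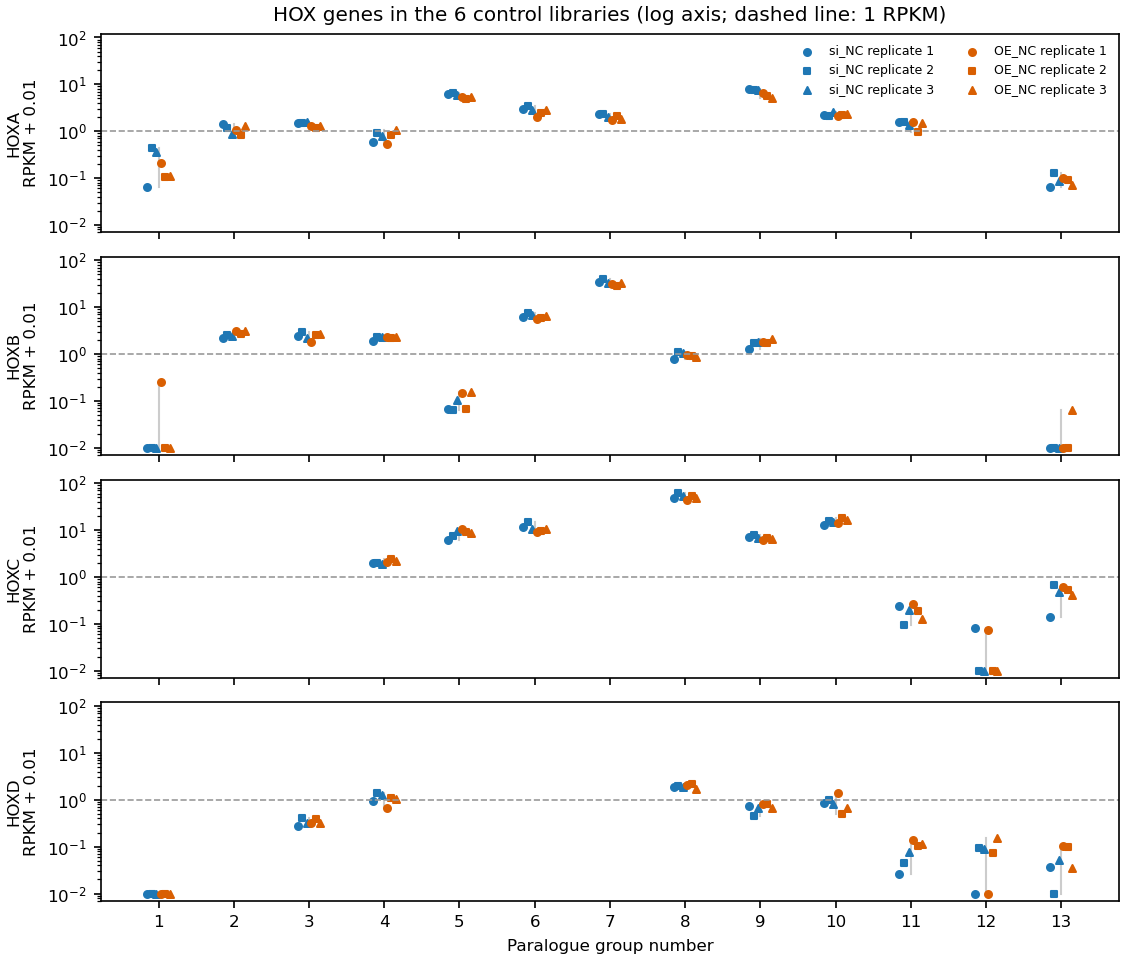
RPKM plus 0.01 (log axis) of each HOX gene by paralogue group, with 1 panel per cluster and 1 point per library; the dashed line is 1 RPKM. HOXC8 (51.7) and HOXB7 (33.3) are the peaks, and HOXA11 (1.41) is the one gene of groups 11 to 13 above the line.

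Other positional and mesenchymal transcription factors numbered 33, of which 18 reached 1 RPKM, against 51.7% of protein-coding genes. ZEB2, a zinc finger factor of epithelial to mesenchymal transition, averaged 117 ± 17.1 RPKM, and PRRX1, a homeobox factor of limb and fibroblast mesenchyme, 112 ± 12.9. Their paralogues were lower, at 4.43 for ZEB1 and 8.67 for PRRX2. SNAI2 (28.7), MSX2 (10.7), SHOX2 (10.3), TBX18 (9.93), TWIST1 (9.87), MSX1 (7.33), MEOX2 (6.80), EN1 (4.83), EBF2 (3.70), TCF21 (2.44), TBX3 (2.44), TWIST2 (1.73) and WT1 (1.37) were others above 1. The other 15 included the limb factors TBX4 (0.0174), TBX5 (0.0131) and PITX1 (0.306), and TBX15 averaged 0.344.

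Regulators of adipogenesis ranged from below 1 to 14.6 RPKM, and genes of mature fat cells from near 0 to above 10 RPKM. Of 19 adipogenic transcription factors 14 averaged at least 1 RPKM, 2 of them at least 10, and none lay below 0.1. Among protein-coding genes, 51.7% averaged at least 1 RPKM and 31.9% lay below 0.1. PPARG, the nuclear receptor that drives fat cell formation, was 8.45 RPKM in the lowest library, 8.96 at the median and 10.7 in the highest, with the sets overlapping. Exon bases of PPARG are shared with another entry on the same strand, so part of its signal may have been counted elsewhere. CEBPA, the factor that works with it, averaged 0.539 ± 0.184 RPKM, from 133 reads over the 6 libraries. The list was led by KLF4 (14.6 ± 3.02) and ZFP36L1 (11.1 ± 1.69). CEBPB and CEBPD, which act before CEBPA, averaged 8.73 ± 3.38 and 3.68 ± 0.762.

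Of 22 genes of mature fat cells, 8 averaged at least 1 RPKM, 6 lay between 0.1 and 1 and 8 lay below 0.1, which is close to the 31.9% of protein-coding genes and 42.6% of all genes that lay there. ADIPOQ, adiponectin, averaged 0.0149 RPKM from 9 reads and was at 0 in 2 libraries. PLIN1, the lipid droplet coat of fat cells, averaged 0.436 ± 0.0451, whereas PLIN2, the droplet coat of many cell types, averaged 14.7 ± 1.95. The fatty acid carrier FABP4 was uneven, at 4.37, 21.5 and 13.4 RPKM in si_NC and 8.43, 11.5 and 10.2 in OE_NC, and si_NC replicates 1 and 2 held both its lowest and its highest value. RBP4, the retinol carrier, averaged 10.6 ± 1.80. Among 10 genes of brown or beige fat, the uncoupling protein UCP1 averaged 0.0159 RPKM from 4 reads, and the regulator PPARGC1A 2.42 ± 0.348 and the respiratory subunit COX7A1 1.88 ± 0.638 were the 2 that reached 1. In bulk RNA, fewer cells of a type and less RNA per cell cannot be told apart, here and for every list below.

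The 19 lists of lineages other than stroma and adipogenic regulators, mature and brown fat included, held 212 distinct genes with a row. Of these 130 (61.3%) averaged below 0.1 RPKM, against 42.6% of all genes and 31.9% of protein-coding genes. A further 43 lay between 0.1 and 1, 39 reached 1 and 15 reached 10. The median was 0.0537 RPKM, against 1.18 for protein-coding genes. Such markers are chosen for restricted expression, so a low median in a given culture describes the lists as much as the cells. The 212 include genes that are also on the lists left out, namely KLF4 and PRDM16 of the adipogenic regulators and MCAM of the stromal list.

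In the smooth muscle and pericyte list, 6 of 14 genes exceeded 10 RPKM, against 4412 of all 29240 genes at 10 RPKM or more. ACTA2, TAGLN (767 ± 181), CNN1 (245 ± 23.9), DES (232 ± 25.05), LMOD1 (106 ± 18.98) and SMTN (51.1 ± 9.99) were abundant, and all 6 encode actin-associated or filament proteins. TAGLN was 561 to 693 RPKM in si_NC and 839 to 1021 in OE_NC. Of the other genes of that list, the smooth muscle myosin MYH11 averaged 1.07 ± 0.246 with 686 of its 6667 exon bases shared with NDE1 on the opposite strand, MYOCD, the smooth muscle cofactor myocardin, 0.0646, and RGS5, a pericyte marker, 0.00542. CSPG4, which is also used to mark pericytes, averaged 4.07 RPKM, from 2.93 to 4.67 over the libraries. In the whole list 8 of 14 genes reached 1 RPKM and 3 lay below 0.1, against 51.7% and 31.9% of protein-coding genes. In the skeletal muscle list DES was 95.4% of the sum, and the myogenic factors MYOD1 (0.0147) and MYF5 (0.0195) were below 0.1, with ACTA1 at 7.60 ± 2.54 and TNNT1 at 1.37 ± 0.115. In the cardiac list TNNT2 averaged 0.786, TNNI3 0.299 and MYH6 0.304, and ACTC1 (1.77 ± 0.441) was the one gene above 1.

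Genes of vessel and blood cells were mostly low. Of 13 endothelial genes 9 lay below 0.1, including the junction proteins PECAM1 (0.0828, 81 reads) and CDH5 (0.0657), and VWF (0.159) and TEK (0.114) were near that level. FLT1, a receptor for vascular endothelial growth factor, stood alone at 8.16 ± 1.33 RPKM. PTPRC, the leukocyte antigen CD45, had no read in any of the 6 libraries, which allows up to 0.00291 RPKM. CD68, a lysosomal protein of macrophages and other cells, averaged 3.50 ± 0.107, while CD79A (0.698) and CD163 (0.637) led the rest of the 20 immune genes and 13 lay below 0.1. Of 9 red cell and platelet genes 7 lay below 0.1, among them HBA (0.0183) and HBB, which had no read and a limit of 0.0242 RPKM. The 2 highest of that list were EPOR (0.238) and ITGA2B (0.162), with PF4 at 0.0888.

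Epithelial and mesothelial genes were low as well. EPCAM averaged 0.00677 RPKM from 2 reads, CDH1, E-cadherin, 0.140, and KRT8 0.107, while KRT19 at 1.17 ± 0.455 was the one of 13 epithelial genes above 1. Of 8 mesothelial genes WT1 (1.37 ± 0.356) and KRT19 reached 1, MSLN averaged 0.822 and UPK3B 0.153.

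Other connective tissues shared single genes with these cells. In the bone list SPP1, osteopontin, averaged 63.5 ± 24.2 RPKM, with 98.1, 60.8 and 85.1 in si_NC and 59.5, 40.9 and 36.7 in OE_NC, all lower. RUNX2, the bone regulator, averaged 4.66 ± 1.15, but SP7 and BGLAP, which act later in osteoblasts, both averaged 0.156. In the cartilage list COL11A1 was 97.4% of the sum, SOX9 averaged 1.86 ± 0.413, CHAD 0.993 and ACAN 0.0167. In the tendon list FMOD averaged 66.4 ± 19.3 (52.3 in si_NC and 80.5 in OE_NC, without overlap), EGR1 2.17 ± 0.589 and MKX 0.440, while SCX (0.0412) and TNMD (0.00910) were below 0.1. In each of these lists 1 matrix gene carried over 90% of the summed level.

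Lists of lineages far from mesenchyme were mostly low, apart from single genes. Of 12 neuronal genes 9 lay below 0.1, RBFOX3 averaged 0.103, MAP2 0.0313, NEFL 0.172, and SNAP25 had no read (limit 0.00677), while the tubulin TUBB3 averaged 5.57 ± 1.42. Among glial genes PMP22, a membrane protein of myelin that fibroblasts also make, averaged 29.2 ± 8.33 (21.8 in si_NC and 36.6 in OE_NC, without overlap), S100B 1.45 ± 0.436, GFAP 0.437 and SOX10 0.0151. In the liver list APOA1 averaged 8.57 ± 3.58, FGB 0.339 and HGFAC, the gene overexpressed elsewhere in the series, 0.208 ± 0.0827, with ALB at 0.0134 and SERPINA1 at no read (limit 0.00899). Of the pluripotency and germ line genes KLF4 and MYC (10.1 ± 1.19), both growth regulators of many tissues, were above 10, SOX2 averaged 1.07 ± 0.212, and POU5F1 (0.0427) and NANOG (0.0190) were below 0.1. All 13 kidney, lung, pancreas and gut genes lay below 0.1, with NPHS1 at 0.0305, UMOD at 0.00445 and VIL1, the highest, at 0.0991, CDX2 at 0.0288, and CPA1 at no read (limit 0.0109). All 5 milk protein and mammary genes did too, with CSN1S1 at 0.0229, PAEP at 0.0215, CSN3 at 0.0112 and CSN2 at 0.00466.

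**Figure D5:**
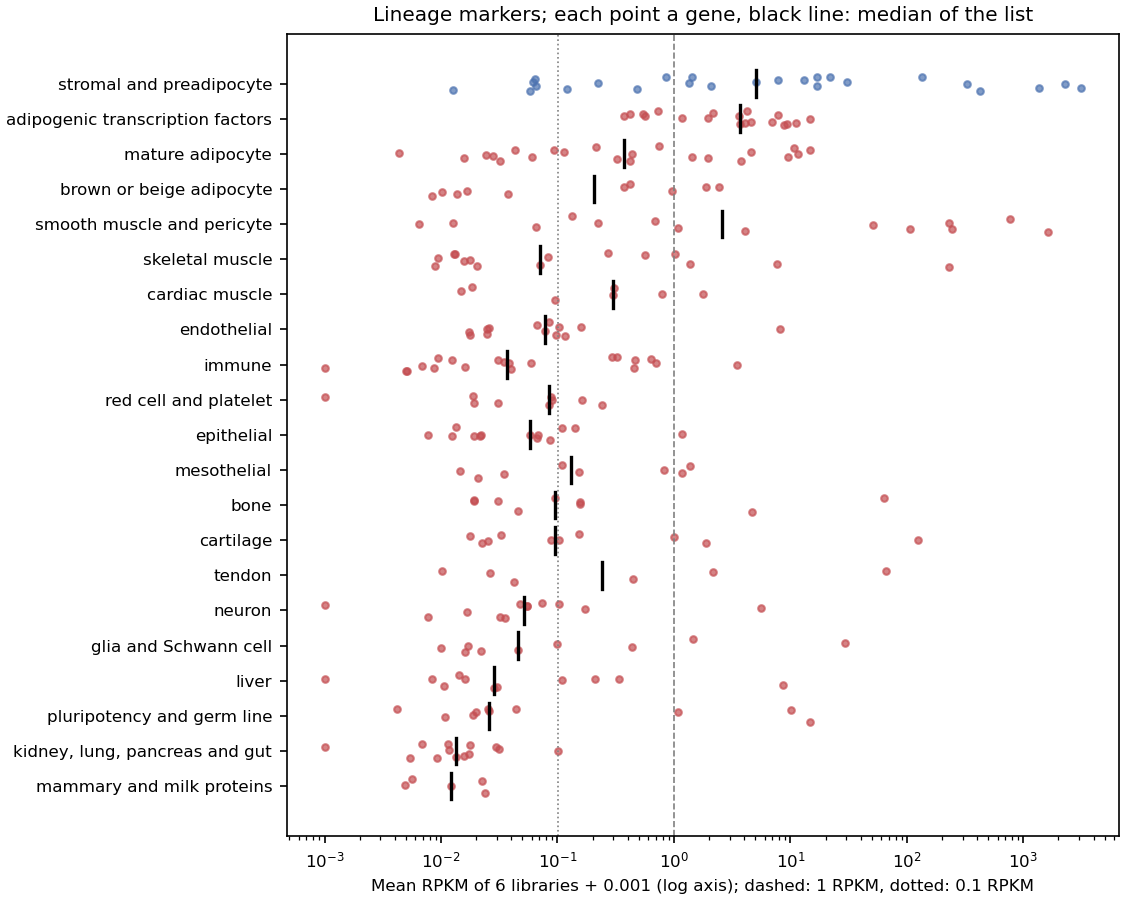
Mean RPKM plus 0.001 (log axis) of each lineage marker, one point per gene, with the list median as a black line; dotted and dashed lines mark 0.1 and 1 RPKM. The stromal list (blue, reaching 3117 for VIM) and the smooth muscle list reach the highest levels, and every gene of the last 2 lists lies below 0.1.

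The level of most abundant genes was stable. Over the 4412 genes with a mean of at least 10 RPKM the coefficient of variation (SD over mean) had a median of 11.3%, a 5th percentile of 4.23% and a 95th of 30.9%, and it passed 50% for 23 genes. The 10 most variable included 4 enzymes of sterol synthesis. HMGCS1, which makes the substrate of the pathway's rate-limiting step, averaged 44.3 RPKM in si_NC and 8.74 in OE_NC, IDI1 averaged 50.5 and 15.6, SQLE 18.02 and 5.57, and CYP51A1 22.8 and 8.57. TRH (30.2 and 5.05) shares 363 exon bases with HMGCS1, so its reads cannot be told from those of HMGCS1 there. All 5 were higher in each si_NC library than in any OE_NC library. H19, an imprinted noncoding RNA, averaged 38.5 in si_NC and 104.1 in OE_NC, without overlap. The microRNA entries MIR1260B (16.5 and 4.78) and MIR2892 (7.51 and 24.2) are about 100 bases long, and all 100 bases of MIR1260B are also exon of MAML2 on the opposite strand, so its value is not read as a microRNA level. IGFBP5 and IGFBP3, secreted binders of insulin-like growth factors, overlapped between the sets, with 4.68 to 28.6 and 15.7 to 63.3 RPKM over the 6 libraries. Of these 10 genes 8 did not overlap, against 40.1% of all genes with a mean of at least 1 RPKM, and nothing is read from that count, since the genes were chosen for their spread.

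Genes known only by a LOC number were not among the leaders. The highest 10 averaged between 200.1 and 702 RPKM, with LOC786430, a pseudogene entry in RefSeq, at 702 ± 92.1 and LOC107131398 at 427 ± 161. The latter was 260 to 320 RPKM in si_NC and 500.5 to 629 in OE_NC.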

How the data were processed

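RNA from transfected Bos taurus preadipocytes was profiled, and 6 control libraries of 12 were used. Counts of reads by gene, unnormalised, and RPKM were both deposited by the authors. Tools listed in the submitters' processing notes are fastp (0.23.0) and, from Subread (1.5.1), featureCounts. Neither aligner nor genome build, counting strand or handling of reads with several matches is stated, all being not given in the sources used here. Deposited RPKM equalled counts divided by exon length (the Length column, deposited by the authors) and by the column sum, with a largest relative deviation of 6.6e-14. In the control libraries 66.2 to 69.3% of nonzero counts were even numbers, so mates may have been counted singly. All columns were matched to titles. Entries that name no gene (0.0904 to 0.116% of reads in the control libraries) were left out.

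Means, SDs, ranges, shares of summed RPKM and the coefficient of variation were computed in Python 3.11.15 with numpy 2.4.6 and pandas 2.3.3, and figures with matplotlib 3.10.9; no test between groups was made. A level of 1 RPKM was called present and 0.1 RPKM low, and the limit for a gene without reads is 3 reads over the 6 libraries pooled, for counting error only. The control libraries held 28.9 to 38.2 M reads in genes, at which 1 read in a gene of 1 kb is worth 0.0261 to 0.0345 RPKM. Of 29240 gene names, 24954 (85.3%) were found in a RefSeq table (ARS-UCD2.0), used for gene class and chromosome number only. Of 875 listed symbols, 18 had no row and 16 were found under an older name. The procedure was tested on simulated data.

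The members, gene lists and thresholds were chosen with earlier results of these data known. Genes named were the 5 markers, the 30 most abundant genes with a symbol, the 3 most abundant members of each family and up to 3 at or under 0.1 RPKM, the first 2 and 3 most abundant members of each lineage list, positional genes of at least 1 RPKM, and the 10 most variable genes of at least 10 RPKM. Other named members (the lowest of a family, partners set in a ratio, and single list members beside them) were chosen after their values were seen. Some genes that the rule selects are not reported here. Alternatives were another scale, other sets of libraries, leaving out short, mitochondrial or rarely read genes, medians, other thresholds and each library left out.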

Additional observations from a re-analysis of the deposited data

Results flagged for a closer look

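Signal was present in 2 mitochondrial entries that name no gene and entered no sum above. The entry of 910 bases, which starts at position 15792 directly after KEH36_t22, averaged 1116 RPKM (992 to 1275 over the 6 libraries, from 27654 to 43265 reads each), where 3 reads in a library would allow 0.114 RPKM. The entry of 31 bases, at positions 5519 to 5549, averaged 51.6 RPKM (39.4 to 62.4, from 38 to 68 reads), where 3 reads would allow 3.34 RPKM. Both were above that limit in all 6 libraries. Of 37 values examined over the 6 libraries, 0 had a single library set apart from the others by Dixon's criterion, which chance passes in about 1 group in 20.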

How the results depend on the processing

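Of the alternatives for the shares and counts over all genes, 101 values stayed within the spread of the libraries (counts within 1.5 times) and 15 moved. Shares of reads, with no division by length, gave the top 100 genes 30.2%, needed 361 genes for 50%, and gave ribosomal proteins 4.13%, actin genes 8.38% and collagens with glycoproteins 3.97%. Leaving out genes under 300 bases gave 34.6% for the top 100, 13.2% for ribosomal proteins and 6.59% for actin genes, and leaving out mitochondrial genes gave 34.3%, 13.4% and 6.64%. Leaving out small RNA and ribosomal RNA entries, chosen after seeing the data, gave 36.1%, 12.9% and 6.41%. In each of these 3 the denominator is smaller by construction. Leaving out genes with fewer than 10 reads in all left 64 lineage markers below 0.1 RPKM, since it removes such genes. With each library left out, the ranges were 10295 to 10404 genes present in every library, 198 to 202 genes for 50%, 39.4 to 39.5% for the top 100, 11.3 to 12.0% for ribosomal proteins, 5.74 to 5.91% for actin genes, 1.68 to 1.81% for collagens with glycoproteins and 127 to 134 low lineage markers. The 5 markers moved only when RPKM was rescaled to a fixed sum, by construction. No paired analysis was possible because the results come from no test. Depth limits the lowest levels, where 1 read decides whether a gene is at 0.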

Other observations

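The 10 steadiest genes with a symbol and a mean of at least 10 RPKM lay between 15.6 and 332 RPKM. HK1, the hexokinase of most tissues, averaged 27.4 ± 0.351 RPKM, a coefficient of variation of 1.28%, with every OE_NC value slightly above every si_NC value. MSN, moesin, which links actin to the membrane, was the most abundant of the 10 steadiest at 332 RPKM (324 to 340). AIDA, HNRNPUL1 and USP16 averaged 76.8, 58.6 and 40.9 RPKM with coefficients of 1.36, 1.36 and 1.47%. GAPDH, a common reference gene, ranged from 258 to 371 RPKM without overlap between the sets, and ACTB from 1118 to 1289, also without overlap. These genes were picked for their spread in these 6 libraries.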
